A study of Mus musculus with 12 samples.

Results

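Mast cells are tissue-resident immune cells that keep preformed proteases, histamine and heparin in granules, and white fat normally holds them around its vessels and in its connective tissue. The 7 mouse genes described here are products or receptors by which mast cells are recognised, chosen by name from the 22151 genes of the deposited table. Cpa3 encodes carboxypeptidase A3, Cma1 and Mcpt4 encode chymases, Tpsb2 encodes a tryptase, and Hdc encodes histidine decarboxylase, which makes histamine. The receptors are Kit, the receptor for stem cell factor on which mast cells depend for survival, and Ms4a2, the beta chain of the high-affinity IgE receptor. Kit is also carried by blood progenitors, melanocytes and some innate lymphoid cells, and Hdc by basophils and some neutrophils and other myeloid cells. Of the 7 genes, 6 had values for each library and 6 were among the 17012 genes tested; Ms4a2 had only summary values.

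The tissue was the fat pad beside the epididymis (epididymal white adipose tissue, eWAT), and its bulk RNA was sequenced from 12 mice. All mice were labelled male C57bl6 (C57BL6/J in the series design), aged 12 to 14 weeks, with no transgene or allele named. Sham surgery was done in 4 mice, and partial hepatectomy (PHx), which takes away 70% of the liver, in the others, of which 5 were sampled on day 3 and 3 on day 7. The day on which the sham mice were sampled is not stated, and their source label places them before hepatectomy, so that surgery and time cannot be told apart in a comparison with sham. Each library came from its own animal.

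The libraries held 13128853 to 23474246 estimated counts. Adipocyte genes were high in every library, with summed levels of 12800 to 25300 CPM (counts scaled to the size of the library) over 6 genes. Tissue of the epididymis or testis could not be followed. Of its 6 listed genes, Defb48, Lcn5, Tnp1 and Prm1 are not in the deposited table, and Crisp1 and Adam7 had no values for single libraries. Groups were not sharply separated: the sham libraries other than 1, day 3 library 5 and all 3 day 7 libraries correlated most with a library of another group. Library 1 of day 3 held Xist, the female-specific transcript, at 359 CPM against at most 1.83 CPM in the others, and Ddx3y, a Y-linked gene, at 0.643 CPM against at least 81.2 CPM, which goes against its label of male. Library 5 of day 3 correlated most with library 2 of day 7 (r = 0.957 over genes) and with its own group by a mean of 0.894, and library 1 of day 7 with library 2 of day 3 (0.936) against 0.869 in its own group. Sham library 4 held 2920 CPM of liver genes against 2.66 to 8.68 CPM in the other sham libraries. Day 7 library 2 held 289 CPM of them, against 75.1 and 2.89 CPM in day 7 libraries 1 and 3 and at most 39.5 CPM at day 3.

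The comparison of day 3 with sham asks how the fat pad differed while the liver regrew. The 4 protease genes were lower on average at day 3 than in sham mice, the level of Kit was higher and that of Hdc lay between the sham values in 5 of 5 libraries, but no difference passed edgeR's test over all genes. By DESeq2 and in the authors' deposited table, Cpa3 passed at day 3. Values are CPM after TMM scaling (trimmed mean of M values), which compare libraries for one gene and not genes with each other. In bulk tissue, fewer cells of a type and less RNA per cell cannot be told apart.

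**Figure D1:**
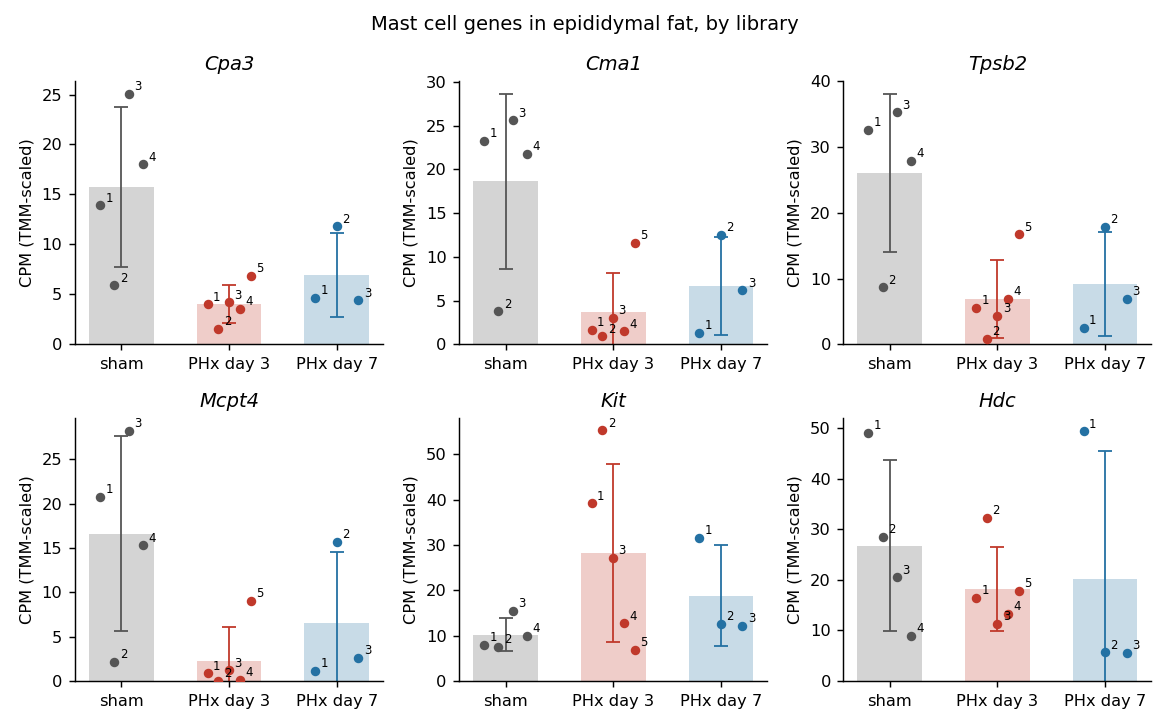
Level of each of the 6 genes with values in every library, in TMM-scaled CPM on a linear axis that starts at 0. Points are libraries with their replicate numbers, bars are group means and error bars are SD (sham n = 4, day 3 n = 5, day 7 n = 3). In the 4 proteases, sham library 2 lies apart from the other sham libraries and day 3 library 5 lies above the rest of its group. In Kit, day 3 library 5 is the lowest of its group.

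Cpa3 (ENSMUSG00000001865, mm39 chr3:20269784-20296346, minus strand) encodes the carboxypeptidase that trims peptides inside and outside the granule. Its levels were 13.9, 5.90, 25.1 and 18 CPM in sham libraries 1 to 4. At day 3 they were 4.00, 1.53, 4.19, 3.52 and 6.83 CPM in libraries 1 to 5, and at day 7 they were 4.66, 11.8 and 4.40 CPM. The 3 highest sham libraries lay above every day 3 library, and sham library 2 lay below day 3 library 5, so the groups overlapped. Means were 15.7 ± 8.00 (SD, n = 4), 4.01 ± 1.90 (n = 5) and 6.97 ± 4.22 CPM (n = 3). The log2 difference at day 3 was -1.97 (SE 0.489, unadjusted p = 0.00147, adjusted p = 0.403 by edgeR's quasi-likelihood test with Benjamini-Hochberg adjustment over 17012 genes). In the authors' deposited table the log2 ratio of Cpa3 at day 3 was -1.98 with a false discovery rate (FDR) of 0.0288, and DESeq2 on the matched counts gave -1.98 with an adjusted p of 0.0287; over all alternatives the adjusted p ran from 0.0259 to 0.872. Cpa3 was therefore called by one count model and not by the other at almost the same difference.

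Cma1 (ENSMUSG00000022225, chr14:56178908-56182133, minus strand) encodes the chymase of connective tissue mast cells, a serine protease. It stood at 23.3, 3.78, 25.6 and 21.8 CPM in the sham libraries. The day 3 libraries held 1.64, 0.917, 2.99, 1.47 and 11.6 CPM, and the day 7 libraries 1.32, 12.5 and 6.17 CPM. As for Cpa3, the overlap of sham and day 3 came from sham library 2 lying below day 3 library 5. The log2 difference at day 3 was -2.32 (SE 0.821, adjusted p = 0.409 by edgeR).

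Mcpt4 (ENSMUSG00000061068, chr14:56297086-56299771, minus strand) encodes another chymase, stored bound to heparin. Its sham levels were 20.8, 2.18, 28.2 and 15.3 CPM. At day 3 it was at 0.858, 0, 1.20, 0.117 and 9.02 CPM, and at day 7 at 1.13, 15.7 and 2.63 CPM. No count fell on Mcpt4 in day 3 library 2, where 3 counts would be 0.183 CPM. The spread at day 3, 2.24 ± 3.82 CPM (SD, n = 5), was larger than the mean, with library 5 far above the rest. The log2 difference at day 3 was the largest of the 6 genes with values, -2.89, with the largest error (SE 1.24, adjusted p = 0.443 by edgeR).

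Tpsb2 (ENSMUSG00000033825, chr17:25585279-25588073, plus strand) encodes the tryptase that forms tetramers with heparin. It stood at 32.6, 8.65, 35.3 and 27.9 CPM in the sham libraries. It was at 5.50, 0.795, 4.34, 6.87 and 16.7 CPM at day 3 and at 2.52, 17.9 and 6.89 CPM at day 7. As for the other proteases, only sham library 2 reached into the day 3 range, and only day 3 library 5 lay above it. The log2 difference at day 3 was -1.93 (SE 0.721, adjusted p = 0.412 by edgeR). Tpsb2 and its neighbour gene Tpsab1 share 76.4% of 996 aligned transcript bases with a longest identical run of 39 bases. For Cma1 and Mcpt4 the share was 64.9% of 951 bases with a longest run of 27. Whether reads were split within either pair was not tested.

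Among the 6 genes, 0 passed an adjusted p of 0.05 at day 3 in edgeR, beside 1 of 17012 genes (0.00588%). DESeq2 called 1 of the 6, Cpa3, beside 0.72% of all genes, and voom called 0 of 6, beside 0%; the authors' deposited table has 0.564% of its genes at an FDR of at most 0.05. At an unadjusted p under 0.05, 4 of the 6 were lower, beside 4.97% of all genes, and 1 was higher, beside 5.9%. The genes were chosen with earlier results known, so these counts describe them and test nothing. Their median log2 difference was -1.95, against -0.02 over all genes tested.

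Beside these differences, the summed level of 5 pan-leukocyte genes was 254 to 607 CPM in sham and 175 to 625 CPM at day 3, and the summed level of 6 macrophage genes was 1210 to 2910 CPM and 931 to 2430 CPM. These sums overlapped between the groups. Other lists were lower on balance. Of 6 eosinophil genes, 3 had values, and 3 of 3 were lower at day 3 (median log2 difference -1.6) and 2 at day 7. Their sum was 8.32 to 20.6 CPM in sham and 2.02 to 12.5 CPM at day 3, with 0 past the adjusted threshold in edgeR. Most of the sum was Ear2, with a mean of 13.3 CPM in sham, where Siglecf and Ccr3 had means of only 1.1 and 0.475 CPM. Of 6 mesothelium genes, 5 were lower at day 3 (median -0.55) and 6 at day 7 (median -1.27), with 0 past the adjusted threshold in edgeR and sums of 683 to 1060 CPM in sham, 563 to 872 CPM at day 3 and 205 to 738 CPM at day 7. Upk3b, a surface protein of mesothelium, was without overlap below sham at both days, as 2.14% and 4.07% of all genes were at day 3 and day 7, and the authors' deposited table gives it an FDR of 0.0127 at day 7. Day 3 library 5, the highest of its group in all 4 proteases, had the lowest pan-leukocyte, macrophage and neutrophil sums of the 12 libraries (175, 931 and 29.1 CPM). Their part in the protease differences was not tested. Without sham library 4 and day 3 library 1 together, the log2 difference of Cpa3 was -1.90.

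The difference at day 3 was larger without day 3 library 5. Leaving out that library alone gave log2 differences of -2.28 for Cpa3, -3.44 for Cma1, -2.60 for Tpsb2 and -4.99 for Mcpt4, none past the threshold. Leaving out day 7 library 1 as well gave -2.25, -3.41, -2.58 and -4.97, and edgeR adjusted p-values of 0.0259, 0.0135, 0.0412 and 0.0358; Kit was then 1.72 with an adjusted p of 0.0317. In that setting 5.79% of all genes were called (1005), and both libraries were singled out by their expression, so these calls are not independent of the data they rest on.

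At day 7 the proteases lay between the other groups on average, with 1 high library among 3. Library 2 of day 7 was the highest of its group in all 4 proteases, at 11.8 CPM for Cpa3 and 17.9 CPM for Tpsb2, within the sham range. Against sham, the log2 differences were -1.17 (SE 0.566) for Cpa3, -1.48 (SE 0.951) for Cma1, -1.52 (SE 0.847) for Tpsb2 and -1.36 (SE 1.40) for Mcpt4, with edgeR adjusted p-values of 0.812 to 0.913. Without day 7 library 2 they were -1.79, -2.31, -2.47 and -3.14 in the same order, and without day 7 library 1 they were -0.92, -0.96, -1.04 and -0.82. All 8 values lay below 0, and their size depended on which mouse was left out. Of the 6 genes 0 passed, beside 0% of all genes in edgeR, 0.538% in DESeq2 and 0.0882% in voom. At an unadjusted p under 0.05 in edgeR there were also 0 of 6, beside 2.75% of all genes lower and 3.51% higher. Against day 3, the proteases differed by 0.41 (Tpsb2) to 1.53 (Mcpt4), with an adjusted p of 0.999 for each of the 6 genes in edgeR. Again 0 of 6 passed, beside 0% of all genes in edgeR, 0.13% in DESeq2 and 0.0118% in voom, and 0 of 6 had an unadjusted p under 0.05, beside 1.64% lower and 1.7% higher. Without day 7 library 2 the differences of Tpsb2 and Mcpt4 from day 3 turned to -0.54 and -0.25 and those of Cpa3 and Cma1 were 0.18 and 0.01, so the later values rest on that mouse. With 3 mice at day 7, differences from either group were within the spread between mice.

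The 4 proteases went up and down together from mouse to mouse. Sham library 3 was the highest of the 12 libraries in all 4, day 3 library 2 the lowest in all 4, and sham library 2 the lowest of its group in all 4. Over the 12 libraries the 6 pairs of proteases had Pearson r of 0.904 to 0.954 and Spearman rho of 0.895 to 0.972 on log2 CPM. These are descriptions over libraries that share the group difference; with the group means removed, r with Cpa3 was 0.899 for Mcpt4, 0.892 for Tpsb2 and 0.843 for Cma1. Among 17011 other genes ranked by r with Cpa3, Mcpt4 was at rank 2, Tpsb2 at rank 3 and Cma1 at rank 5.

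Among the genes outside the 7 that were most like Cpa3 over the 12 libraries, by Pearson r of log2 CPM, were Snhg20 (0.955, rho 0.951), Dhrs7b (0.917, rho 0.874), Ring1 (0.905, rho 0.902) and Bank1 (0.904, rho 0.930). Snhg20 is a small nucleolar RNA host gene, Ring1 a Polycomb protein and Bank1 a B cell scaffold. Of the 5 highest ranks in likeness to Cpa3, 3 were taken by the other proteases.

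**Figure D2:**
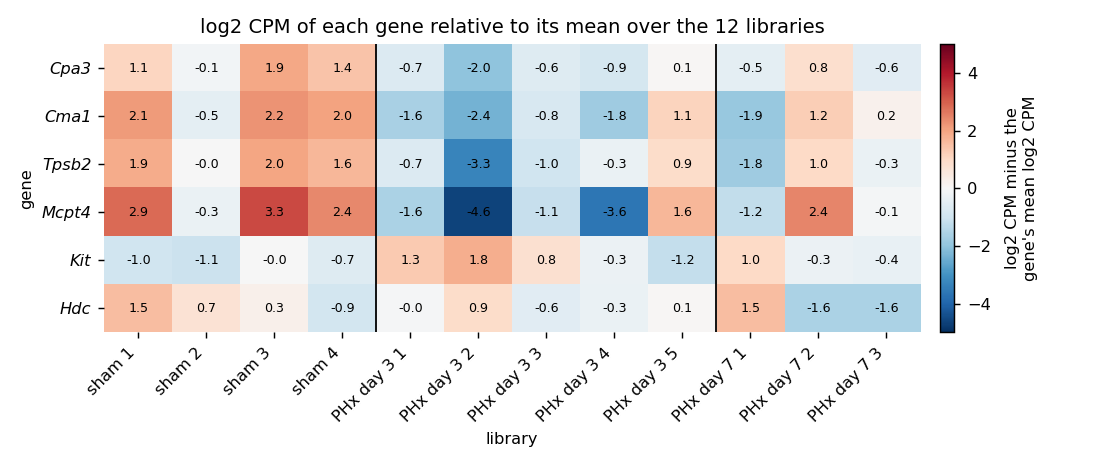
log2 CPM of each gene in each library minus that gene's mean log2 CPM over the 12 libraries, as colour and as printed values on a log2 scale; black lines separate sham, day 3 and day 7. The rows of Cpa3, Cma1, Tpsb2 and Mcpt4 share their high libraries (sham 1, 3 and 4, day 7 2) and their low ones, while the rows of Kit and Hdc follow other libraries.

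The proteases did not keep a fixed proportion. Relative to Cpa3 in the same library, the log2 ratio of Tpsb2 ran from 0.49 to 1.22 in sham and from -0.92 to 1.29 at day 3. That of Cma1 ran from -0.64 to 0.74 in sham and from -1.27 to 0.76 at day 3. That of Mcpt4 ran from -1.43 to 0.58 in sham and from -5.67 to 0.40 at day 3, the lowest being the library in which no count fell on it. Mcpt4 thus moved over a wider range than Cpa3 in the same mice. Ratios were taken with 0.5 count added and show how proportions vary between libraries, not which gene is more abundant.

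Because the proteases vary together, the bases before their start sites were searched for GATA factor motifs (AGATAA and TGATAA, either strand), since Gata2 is a transcription factor of mast cells, and for CATGTG, a motif of Mitf. Windows were 250 bases before the RefSeq start in build GRCm38.p6, not mm39. RefSeq windows were at hand for 6 of the 7 genes, and Tpsb2 was the exception. The last 120 bases are shown for the 3 proteases and, for contrast, for Kit (the first of 2 listed starts), 5′ to 3′ on the gene's strand, with GATA motifs in capitals.
Cpa3, chr3:20242182-20242301, minus strand: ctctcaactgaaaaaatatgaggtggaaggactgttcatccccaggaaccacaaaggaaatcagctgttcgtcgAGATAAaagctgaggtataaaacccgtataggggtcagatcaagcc
Mcpt4, chr14:56062311-56062430, minus strand: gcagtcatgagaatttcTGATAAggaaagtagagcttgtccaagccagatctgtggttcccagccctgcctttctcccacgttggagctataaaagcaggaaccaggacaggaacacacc
Cma1, chr14:55944676-55944795, minus strand: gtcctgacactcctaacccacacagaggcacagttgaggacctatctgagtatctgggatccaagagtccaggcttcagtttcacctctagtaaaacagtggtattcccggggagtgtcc
Kit, chr5:75574867-75574986, plus strand: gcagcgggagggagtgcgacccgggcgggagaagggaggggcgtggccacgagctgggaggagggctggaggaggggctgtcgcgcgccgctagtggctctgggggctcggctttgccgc
Cpa3 held AGATAA starting 46 bases before the start, and Mcpt4 held TGATAA starting 103 bases before it. Ms4a2 held 3 copies of AGATAA in its 250 bases. The windows of Cma1, Kit and Hdc held none of these letters, and CATGTG was in 0 of the 6. One of the 2 GATA motifs was in 3 of 6 windows, beside 16.6% of 32851 windows of all genes. A match is a run of letters and says nothing of binding in these mice.

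Kit (ENSMUSG00000005672, chr5:75735576-75817383, plus strand) went the other way on average. Its sham levels were 7.90, 7.51, 15.5 and 9.96 CPM. Its day 3 levels were 39.2, 55.3, 27.2, 12.7 and 6.89 CPM, and its day 7 levels were 31.6, 12.6 and 12.1 CPM. Libraries 1, 2 and 3 of day 3 and library 1 of day 7 lay above every sham library, and day 3 library 5 lay below every sham library. The log2 difference was 1.47 at day 3 (SE 0.548, unadjusted p = 0.0193, adjusted p = 0.412) and 0.88 at day 7 (SE 0.598, adjusted p = 0.867), both by edgeR. Without day 7 library 1 the day 7 difference was 0.29. In the authors' deposited table the FDR of Kit was 0.212 at day 3. Without day 3 library 2 the day 3 difference was 1.05, and without sham library 4 and day 3 library 1 it was 1.29. The library with the highest Kit, day 3 library 2, had the lowest level of all 4 proteases.

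Kit and the proteases were inversely related over the 12 libraries, with r of -0.777 (Tpsb2) to -0.592 (Cpa3) and rho of -0.657 to -0.566. With the group means removed, r of Kit with Cpa3 was -0.345, against -0.551 with Cma1 and -0.674 with Tpsb2. Without the 2 libraries farthest from the median of Kit, r with Cpa3 was -0.291, and without the 2 farthest from the median of Cpa3 it was -0.712. The relation of Kit with Cpa3 thus depended on which libraries were taken, and was negative in each of these. The log2 ratio of Kit to Cpa3 was -0.85 to 0.35 in sham, 0.01 to 5.15 at day 3 and 0.09 to 2.75 at day 7.

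**Figure D3:**
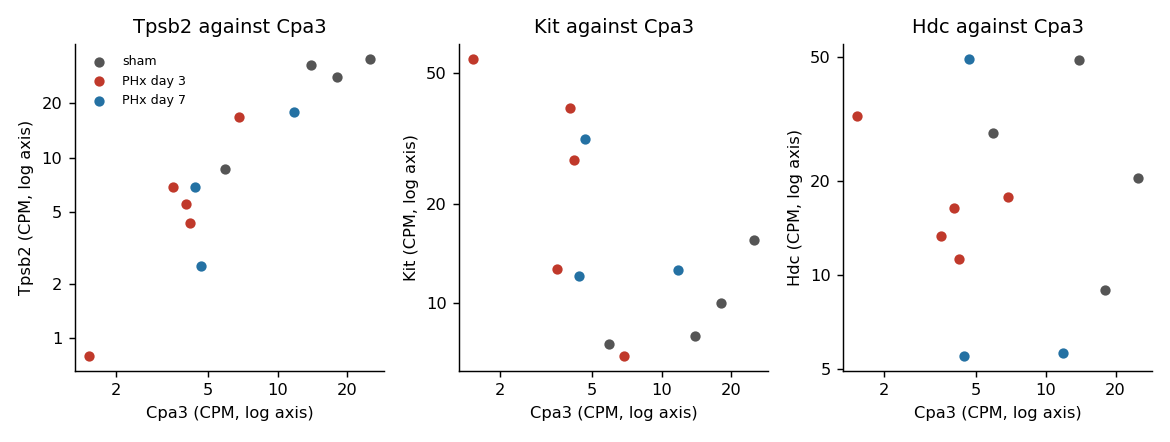
Level of Tpsb2, Kit and Hdc against Cpa3 in each library, in TMM-scaled CPM on log axes; each point is 1 of the 12 libraries, coloured by group. Tpsb2 is higher where Cpa3 is higher (r = 0.928), the highest Kit values lie at low Cpa3 (r = -0.592), and Hdc shows no such order (r = -0.12).

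Cells other than mast cells that carry Kit were followed by lists of genes, some of them shared with other cells. Of 5 melanocyte genes, 2 had values, summing to at most 4.46 CPM in any library, and Tyr, Tyrp1 and Mlana are not in the deposited table. The sum of 5 blood progenitor genes with values was 259 to 433 CPM in sham and 220 to 457 CPM at day 3. Most of it was Cd34, which endothelium and fat stroma share, and Kitl, the gene of the ligand of Kit. Flt3 and Myb averaged 0.852 and 1.04 CPM in sham. In library 2 of day 3, the highest in Kit, the sum was 457 CPM, and in library 1 of day 3, the next, 220 CPM. Of 7 genes of type 2 innate lymphoid cells, 4 had values. Their sum was 927, 139, 430 and 785 CPM in the 4 libraries highest in Kit (day 3 2, day 3 1, day 7 1 and day 3 3) and 57.4 to 253 CPM in the others. Arg1, also a macrophage gene, gave 840, 54.2, 334 and 703 CPM of these, and Gata3, a defining factor of these cells, was at 0.856 CPM at most in those 4. Their part in the level of Kit was not tested. The genes most like Kit, a search added after its values were seen, were Lin7c (r = 0.949, rho 0.881), Twist2 (0.946, rho 0.937) and Etf1 (0.944, rho 0.909), of which Twist2 is a transcription factor of mesenchymal cells.

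The ligand of Kit, stem cell factor (Kitl), was not higher on average at day 3 as its receptor was. Its level was 80.2 to 87.7 CPM in sham and 33.9 to 124 CPM at day 3, a log2 difference of -0.07 (SE 0.293). Whether it followed Kit from mouse to mouse was not tested. Of 10 genes of the ligand and its signalling, 0 passed the edgeR test at day 3 or day 7. At day 3, 5 were lower and their median was 0.04; at day 7, 10 of 10 were higher with a median of 0.21, beside 0.01 over all genes. Gab2, an adaptor of the receptor, was 43.8 to 64.0 CPM in sham and 78.6 to 140 CPM at day 3, with every day 3 library above every sham library, as for 1.58% of all genes (log2 difference 1.06, SE 0.261, adjusted p = 0.403 by edgeR). In the authors' deposited table Gab2 at day 3 had a log2 ratio of 1.06 and an FDR of 0.034, so that, like Cpa3, it was called there and not in edgeR. The adaptor Grb2 differed by 0.29, and Pik3r1, a subunit of phosphoinositide 3-kinase, by -0.08. These proteins act behind many receptors in many cells of fat.

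Hdc (ENSMUSG00000027360, chr2:126435587-126461220, minus strand) varied more within groups than between them. Its levels were 49, 28.5, 20.5 and 8.93 CPM in sham. They were 16.4, 32.3, 11.3, 13.3 and 17.8 CPM at day 3 and 49.3, 5.62 and 5.51 CPM at day 7. The log2 difference was -0.55 at day 3 (SE 0.650, adjusted p = 0.771) and -0.41 at day 7 (SE 0.749, adjusted p = 0.960), by edgeR. The day 3 difference was -0.09 without sham library 1 and -0.87 without day 3 library 2. Its r with the proteases was -0.225 to -0.12, and it was at rank 9973 of 17011 in likeness to Cpa3. With the group means removed, r was -0.428 with Cpa3, -0.525 with Tpsb2, -0.517 with Cma1 and -0.37 with Mcpt4. The enzyme of histamine synthesis thus did not go up with the granule proteases, and within groups it tended to be lower where they were higher.

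The libraries high in Hdc were those high in neutrophil genes. The 4 libraries highest in Hdc, sham 1, sham 2, day 3 2 and day 7 1, were the 4 highest in the sum of 6 neutrophil genes, at 292, 328, 299 and 678 CPM, against 29.1 to 258 CPM in the others. S100a8, a calcium-binding protein of neutrophils, was at 199 CPM in day 7 library 1 and 0.310 to 92.2 CPM elsewhere. Basophil genes were low where they had values: 3 of 5 did, summing to 0.374 to 4.57 CPM. Mcpt8, the defining protease of basophils, is not in the deposited table and could not be followed. The part of either cell in the level of Hdc was not tested. Without day 7 library 1 the log2 difference of Hdc at day 7 was -2.23 from sham and -1.69 from day 3, so that 1 mouse sets its level there.

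**Figure D4:**
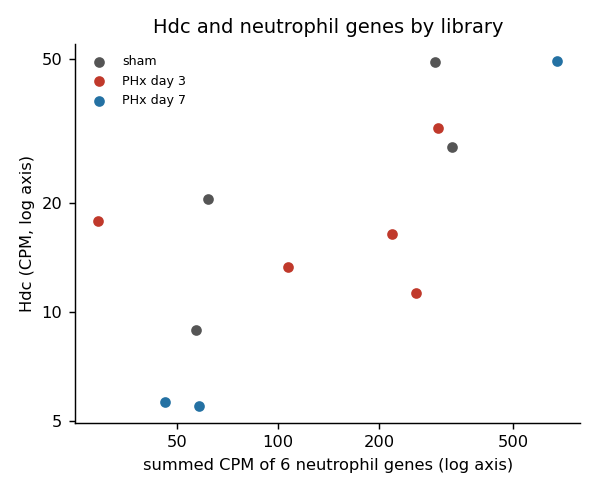
Level of Hdc against the summed level of 6 neutrophil genes in each library, both in TMM-scaled CPM on log axes, with groups as colours. The 4 libraries with the highest neutrophil sums, 292 to 678 CPM, are the 4 highest in Hdc, and the remaining libraries show no clear order.

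Ms4a2 (ENSMUSG00000024680, chr19:11592887-11601084, minus strand) had no value for single libraries, and only the authors' summaries describe it. In the authors' deposited table its mean over the 12 libraries was 5.26 normalized counts, with group means of 10.2 in sham, 2.86 at day 3 and 2.62 at day 7. Its maximum was 41 and its geometric mean 0. The sham mean times 4 libraries is also 41, so nearly all the sham signal lay in 1 library, which these summaries do not name. The authors' deposited log2 ratio was -1.84 at day 3 (FDR 0.860) and -1.97 at day 7 (FDR 0.996). The gene was too sparse at this depth to show a difference.

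The other chains of the IgE receptor were measured. Fcer1a, the chain that binds IgE, was at 2.47, 1.86, 3.65 and 1.44 CPM in sham and at 1.22, 0, 0.374, 1.35 and 0.398 CPM at day 3. Every day 3 library lay below every sham library, as for 2.14% of all genes, with a log2 difference of -1.81 (SE 0.934) that was not past the adjusted threshold in edgeR. Fcer1g, the gamma chain that macrophages and other myeloid cells share, was 25 to 80.1 CPM in sham and 19.5 to 93.3 CPM at day 3, a difference of 0.28. Of 11 tested genes of signalling behind the receptor, 0 passed in edgeR at either day and 6 were lower at day 3, with a median of -0.03; the kinase Syk differed by -0.06 and the kinase Lyn by -0.03. Fcer1a, Fcer1g, Mrgprb1, Slc18a2 and Gata2 were named after their values were seen.

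Mrgprb1, a receptor gene of the Mas-related family expressed in mast cells, was at 6.11, 2.28, 7.72 and 5.26 CPM in sham and at 0.143, 0, 0.972, 1.35 and 1.79 CPM at day 3. At day 7 it was at 0, 1.52 and 0.525 CPM. Both groups after hepatectomy lay below every sham library, with log2 differences of -2.64 (SE 1.08) and -2.96 (SE 1.34), neither past the adjusted threshold in edgeR; 2.14% of all genes were so separated at day 3 and 4.07% at day 7. Slc18a2, the transporter that loads histamine and serotonin into granules, was 2.64 to 4.07 CPM in sham and 0.763 to 2.12 CPM at day 3, a difference of -1.36 (SE 0.557), also without overlap. In both genes sham library 2 was the lowest sham library, and day 3 library 5 and day 7 library 2 were the highest of their groups, as in the 4 proteases. Fcer1a did not share this order. Its lowest sham library was library 4 (1.44 CPM) and its highest day 3 library was library 4 (1.35 CPM).

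The wider lists did not share the median of the proteases. At day 3, 2 of 4 tested genes of other granule proteases were lower (median -0.13), led in level by the lysosomal proteases Ctsd (0.15) and Ctsc (0.49), which most cells express. The tryptase Tpsab1 was at 0.206 to 2.01 CPM in sham and 0 to 2.58 CPM at day 3. At day 7 it was at 0 to 0.189 CPM, below every sham library, as for 4.07% of all genes. That log2 difference was -3.93 (SE 1.69, adjusted p = 0.789 by edgeR), at levels where 3 counts would be 0.189 CPM in day 7 library 1. Of 6 genes of granule matrix and amine storage, 2 were lower (median 0.22), and serglycin (Srgn), the core protein of granule heparin and of other leukocyte granules, differed by 0.96 (SE 0.702). Of 11 receptor genes, 6 were lower and 5 higher (median -0.11), the higher including Cd63 at 0.29, Il4ra at 1.09 and C5ar1 at 0.58. Il1rl1, Fcer1a and Mrgprb1 were among the lower, at -0.88, -1.81 and -2.64. Mrgprb2 and, of amine storage, Tph1 were too sparse for the test. Their means were 1.34 and 0.789 CPM in sham and 0.163 and 0.0928 CPM at day 3. Il1rl1, Mrgprb2 and Tph1 were named after their values were seen. All genes tested were lower in 51.7%, and 0 genes of these lists passed the test in edgeR.

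Transcription factors of mast cells showed 3 of 8 lower (median 0.21). Mitf, on which mast cells and melanocytes depend, was 21.3 to 31.1 CPM in sham and 32.5 to 76.4 CPM at day 3, with no overlap, as for 1.58% of all genes, and a log2 difference of 0.78 (SE 0.286); at day 7 it was 0.27. Gata2, which endothelium and fat precursors also express, differed by 0.31 (SE 0.361) at day 3. Stat5a and Stat5b, which act behind many cytokine receptors, differed by -0.23 and -0.19, and Spi1, a myeloid factor, by 0.52. Runx1, named after its values were seen, had the largest difference of the list. It was 1.70 (SE 0.658) at day 3 and 1.90 (SE 0.718) at day 7. Its levels overlapped with sham at both days, and neither difference passed the adjusted threshold in edgeR. Gata1 had no values. The median of these factors lay above 0 where that of the proteases lay below it.

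Of 6 enzymes of lipid mediators, 4 were lower at day 3 (median -0.12). Ltc4s, leukotriene C4 synthase, was 60.8 to 113 CPM in sham and 22.4 to 48.5 CPM at day 3 without overlap, as for 2.14% of all genes, a log2 difference of -1.14 (SE 0.348), and was -0.96 at day 7. Alox5ap, the 5-lipoxygenase activating protein, differed by 0.54 and Ptgs1, cyclooxygenase 1, by -0.74 (SE 0.429). Of 4 tested genes that receive or degrade mast cell products, 4 were lower at day 3 with a median of -0.42, among them Hnmt, the histamine methyltransferase (-0.98, SE 0.668), and the histamine receptors Hrh1 (-0.41) and Hrh2 (-0.44). None of these passed the adjusted threshold in edgeR.

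**Figure D5:**
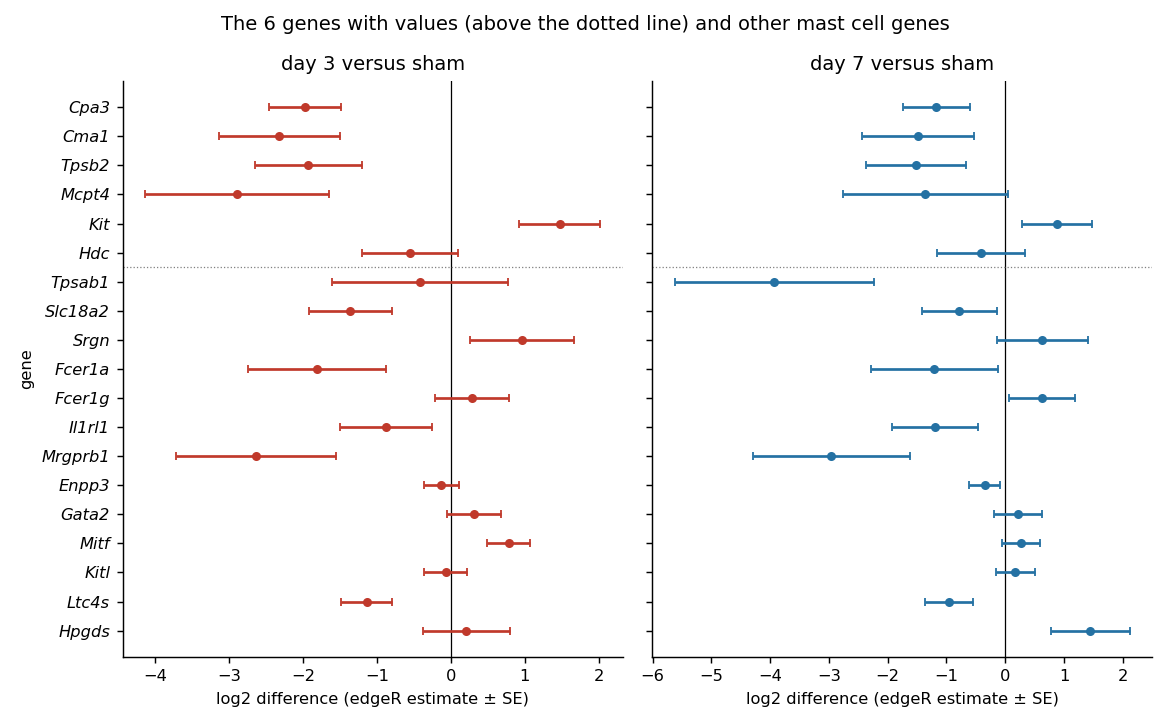
log2 difference from sham at day 3 (left) and day 7 (right) with its SE from edgeR. Shown are the 6 genes with values (above the dotted line) and 13 other listed genes picked after their values were seen. Some are shared with other cells, and the axes of the panels differ. To the left of 0 in both panels lie the 4 proteases, Hdc, Tpsab1, Slc18a2, Fcer1a, Il1rl1, Mrgprb1, Enpp3 and Ltc4s. To the right in both lie Kit, Srgn, Fcer1g, Gata2, Mitf and Hpgds, and Kitl changes side. None of the genes shown passed the adjusted threshold in edgeR.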

How the data were processed

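The authors deposited expected counts for each gene and library, named raw per the file headers, of which 28.5% to 39.6% in a library were not whole. The authors also deposited normalized count signal, used here only to match values to genes, and p-values, FDR and log2 ratios of each day against sham. Per the submitters' processing notes, the tools were Partek, STAR and DESeq2 with build mm39; settings, versions and strandedness are not given in the sources used here, so reads of overlapping or antisense genes cannot be separated. The labels name polyA RNA, and the series design total RNA.

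Of 18086 lines of per-sample values as deposited, 18065 stand beside a gene they do not belong to. Each line was assigned to the gene whose deposited mean, maximum and geometric mean it gave (relative tolerance of mean and maximum 3e-05); 18070 matched 1 gene, neighbours settled the other 16, and 0 broke the gene order. The 4065 genes left without a line hold 0.0784% of all normalized counts. Unmapped per-sample columns numbered 0.

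After rounding, edgeR 4.0.16 (R 4.3.3, statmod 1.5.0) was run on the counts: filterByExpr with a minimum count of 10, TMM, and a robust quasi-likelihood F-test on all 12 libraries with 1 coefficient per group, Benjamini-Hochberg adjusted over 17012 genes, threshold 0.05. DESeq2 1.42.0, limma 3.58.1 (voom with quality weights), other scaling, filters and left-out libraries were alternatives. The script was tested on simulated data. CPM on a log2 scale for correlations has a prior count of 2. Floors of 3 counts cover counting error only, whereas the SE from edgeR also takes in the estimated spread between mice. Paralog transcripts (GENCODE, build GRCm38) were aligned with Biopython 1.88, and figures drawn with matplotlib 3.10.9.

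The 7 genes and all gene lists were chosen with earlier results of these data known. Named from each list are up to 4 genes with the highest mean CPM and any past the threshold, plus the 5 genes most like Cpa3, of which 1 is not reported here; other names are said to be picked after their values were seen. Replicate numbers gave r above 0.1 in 2 of 10 same-numbered pairs and were not treated as pairs.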

Additional observations from a re-analysis of the deposited data

Results flagged for a closer look

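In 2 of the 12 groups of values examined, 1 library lay far from the rest of its group by Dixon's criterion, which flags about 1 in 20 groups by chance; groups of 3 mice were not examined. Both were day 3 library 5, at 11.6 CPM for Cma1 and 9.02 CPM for Mcpt4. The groups of values come from the same mice, and these genes varied together (r = 0.954 over the 12 libraries). The 2 flags are thus not independent, and their count cannot be set against that rate. The next highest day 3 libraries held 2.99 and 1.20 CPM. This is also the library that correlated most with library 2 of day 7 and had the lowest pan-leukocyte sum, 175 CPM. The part of these in its protease level was not tested.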

How the results depend on the processing

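The count of genes called moved most. Against 1, 0 and 0 genes for day 3 versus sham, day 7 versus sham and day 7 versus day 3, DESeq2 called 122, 70 and 22 and voom 0, 15 and 2. Without day 3 library 5 and day 7 library 1 the counts were 1005, 17 and 441, and without sham library 4 and day 3 library 1 the first was 0. Leaving out 1 library at a time gave 0 to 2, 0 to 3 and 0 to 4 genes, the highest each without day 7 library 1. With the replicate number as a block (day 3 library 5 left out, having no partner), 0 genes were called at day 3; the numbers do not pair the mice. For Cpa3, Cma1, Tpsb2, Mcpt4 and Kit the direction against sham was kept in every alternative at both days. Left-out libraries moved the day 3 log2 difference of Kit from 1.05 (without day 3 library 2) to 1.74, and that of Cpa3 from -2.28 to -1.65. Hdc reversed: against sham at day 7 it ran from -2.23 (without day 7 library 1) to 0.06, being 0.06 without sham library 1, 0.04 without day 7 library 2 and 0.03 without day 7 library 3, and against day 3 it ran up to 0.6 and was -1.25 with voom, -0.74 with the block, -1.69 without day 7 library 1 and -1.72 without that and day 3 library 5. Tpsb2 and Mcpt4 reversed between the days without day 7 library 2, to -0.54 and -0.25, and reached 1.1 and 3.66 without day 3 library 5. The cause was not tested. Depth limits the genes near 1 CPM, where 3 counts are 0.114 CPM in the deepest library.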
